A study of Homo sapiens with 29 samples.

Results

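CSF1, CSF2 and CSF3 are the 3 colony-stimulating factor genes, and they were chosen by name, as 3 of the 28266 gene symbols with counts. The measurements were RNA sequencing counts from IMR90 ER:RAS cells, a line of human lung fibroblasts made by retroviral infection to carry oncogenic RAS fused to the estrogen receptor. All groups carried this construct, and 4-hydroxytamoxifen (4OHT) switches the fusion on and brings the cells into oncogene-induced senescence. Samples are labelled day 7, and siRNA was brought in by reverse transfection. The group DMSO_siNT received the solvent DMSO and non-targeting siRNA, 4OHT_siNT received 4OHT and non-targeting siRNA, and 4OHT_siSMARCA4 received 4OHT and siRNA against SMARCA4, the ATPase of the SWI/SNF chromatin remodelling complex. Each group had 6 libraries, 3 with an siRNA numbered 2 and 3 with an siRNA numbered 4. Libraries also carry a set name that ends in V or VM, whose meaning is not given, and a library is called by its siRNA number and set, such as 4-2V. All 6 4OHT_siNT libraries came from VM sets. No label says that libraries of a group came from separate cultures, so the p-values measure the spread between these libraries, which may be technical.

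Colony-stimulating factors are secreted proteins named for the blood cell colonies they support in culture. CSF1 (M-CSF) keeps monocytes and macrophages alive through the receptor tyrosine kinase CSF1R. CSF2 (GM-CSF) acts on granulocytes, macrophages and dendritic cells through CSF2RA and the shared beta chain CSF2RB, which activate JAK2 and STAT5, and CSF3 (G-CSF) drives the production and release of neutrophils through CSF3R. Fibroblasts are known to make CSF1 without stimulation, whereas CSF2 and CSF3 are induced by interleukin-1 and other inflammatory signals and belong to the senescence-associated secretory phenotype (SASP), the secretome of senescent cells.

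In GENCODE version 44 on GRCh38, CSF1 (ENSG00000184371.14) spans chromosome 1 from 109910242 to 109930992 with 9 exons in its canonical transcript, CSF2 (ENSG00000164400.6) spans chromosome 5 from 132073789 to 132076170 with 4 exons, and CSF3 (ENSG00000108342.13) spans chromosome 17 from 40015361 to 40017813 with 5 exons. All 3 are protein-coding genes on the plus strand, and no other annotated gene overlapped any of them. The promoter of CSF2 is shown because the promoter table used held no entry for CSF1 or CSF3. The sequence is from RefSeq (GRCh38.p14, chr5:132073539-132073838, plus strand), runs from 250 bases before the start of the gene to 50 after it, and capitals mark the core of the cytokine-1 (CK-1) element described in CSF promoters. Of the 3 members, 1 had an entry in the promoter table used.

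CSF2 promoter: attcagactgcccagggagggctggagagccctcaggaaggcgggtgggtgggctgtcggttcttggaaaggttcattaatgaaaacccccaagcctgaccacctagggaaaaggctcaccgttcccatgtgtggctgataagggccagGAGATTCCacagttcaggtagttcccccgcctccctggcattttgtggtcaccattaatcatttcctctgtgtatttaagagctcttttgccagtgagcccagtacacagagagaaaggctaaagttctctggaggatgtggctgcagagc

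The CK-1 core, searched as GAGATTCC on both strands, matched 1 time, on the plus strand at 132073688 to 132073695 and 101 bases before the start. Of 35116 promoters of this length, 0.869% held these letters. Searches on both strands for an AP-1 site (TGANTCA, held by 7.71% of promoters), a kappaB consensus (5.91%), a C/EBP site (TTGCNNAA, 10.5%) and a TATA box (TATAAA, 11.5%) gave 0 matches in this window, which says only that these letters are not in it. No motif searched overlapped the CK-1 match.

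Libraries held 9657309 to 18039313 counts, and in each comparison 13136 genes were tested. SMARCA4, examined first as the target of the knockdown, averaged 301 ± 20.9 counts-per-million (CPM; ± SD, n = 6) under 4OHT_siNT against 99.03 ± 27.6 CPM under 4OHT_siSMARCA4, with all 6 knockdown libraries below the lowest control library. The DMSO_siNT library 4-2V stood apart from the other libraries, with the fewest counts (9657309) and the most genes detected (17915). Values without it are given beside results that it changed. One 4OHT_siSMARCA4 library carried a VM set name in the header of the counts, but no label held that name with its siRNA number. It is called the unlabelled library and is left out of the VM sets unless it is said to be added or counted as VM. The fibroblast markers VIM, COL1A1, COL1A2, PDGFRB and THY1 were all expressed, summing to at least 8482 CPM in each library. The 5 leukocyte markers (PTPRC, CD14, ITGAM, SPI1 and CD3E) summed to at most 0.956 CPM in any library. The 3 epithelial markers (EPCAM, CDH1 and SFTPC) summed to at most 2.39 CPM, with SFTPC at 0 counts in every library, and the 3 endothelial markers (PECAM1, CDH5 and VWF) to at most 5.69 CPM.

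Senescence was accompanied by opposite changes among the 3 genes. CSF2 and CSF3 went from at most 8 counts per library in DMSO_siNT to at least 371 in 4OHT_siNT, while CSF1 fell to 51.3% of its mean. Of the 3 members, 2 were called higher and 1 lower by the quasi-likelihood test of edgeR at a Benjamini-Hochberg adjusted p under 0.05, beside 23.9% of all genes tested called higher and 28.9% called lower. Over all genes tested the median log2 fold change was −0.05. How many of all genes had no overlap between the groups was not counted.

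CSF1, the macrophage growth factor, was the only member with more than 8 counts in any DMSO_siNT library. Its level in DMSO_siNT ran from 46.1 CPM through a median of 59.8 CPM to 75.03 CPM, and in 4OHT_siNT from 26.1 CPM through 31.05 CPM to 36.4 CPM. Every 4OHT_siNT library was below every DMSO_siNT library. On the log2 scale CSF1 changed by −0.96 ± 0.21 (± SE, edgeR adjusted p = 0.000646), and by −0.78 ± 0.13 within VM sets (edgeR adjusted p = 0.000176). Fibroblast markers moved beside it, with COL1A2 (−1.52 ± 0.24), THY1 (−0.88 ± 0.21) and PDGFRB (−0.57 ± 0.21) called lower, 3 of 5, beside 28.9% of all genes tested. The part of these markers in the fall of CSF1 was not tested. The 5 markers summed to 10389 to 29013 CPM in DMSO_siNT and to 14409 to 19151 CPM in 4OHT_siNT. The lowest of these sums was that of the DMSO_siNT library 4-2V, and the other DMSO_siNT libraries ran from 24971 to 29013 CPM. Without that library COL1A1 was called lower as well (−0.78 ± 0.18, edgeR adjusted p = 0.000955). Libraries with siRNA number 4 alone gave −0.64 ± 0.25, which was not called (edgeR adjusted p = 0.0669).

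CSF2, the granulocyte and macrophage factor, had 6, 3 and 3 counts in the DMSO_siNT libraries 2-1V, 2-2V and 2-2VM, and 8, 3 and 3 counts in 4-2V, 4-2VM and 4-3VM. The highest of these, library 4-2V, stood at 0.956 CPM. In 4OHT_siNT CSF2 ran from 27.4 CPM through a median of 38.9 CPM to 85.2 CPM, or from 371 to 1248 counts. The ranges did not overlap. The fitted change was 6.96 ± 0.38 on the log2 scale (edgeR adjusted p = 2.14e-11). Summed counts scaled to library size gave a ratio of 131 (95% interval 89.4 to 201, counting error only). The change was 7.34 ± 0.42 without the DMSO_siNT library 4-2V and 7.62 ± 0.53 within VM sets, with both called.

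CSF3, the neutrophil factor, had 1, 0 and 0 counts in the same libraries 2-1V, 2-2V and 2-2VM of DMSO_siNT, and 4, 0 and 1 counts in 4-2V, 4-2VM and 4-3VM. For the 3 libraries at 0, the limit of 3 counts allows 0.214 to 0.247 CPM. In 4OHT_siNT CSF3 ran from 44.4 CPM through a median of 70.9 CPM to 139 CPM, so that no library came near the DMSO_siNT range. The fitted change was 9.79 ± 0.59 on the log2 scale (edgeR adjusted p = 7.42e-11), whereas the ratio of summed counts was 1007 with a counting interval of 462 to 2744. Of the 6 counts in DMSO_siNT, 4 came from library 4-2V, and without this library the fitted change was 11.0 ± 0.70. Within VM sets it was 11.2 ± 0.80. Each of these values was called.

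**Figure D1:**
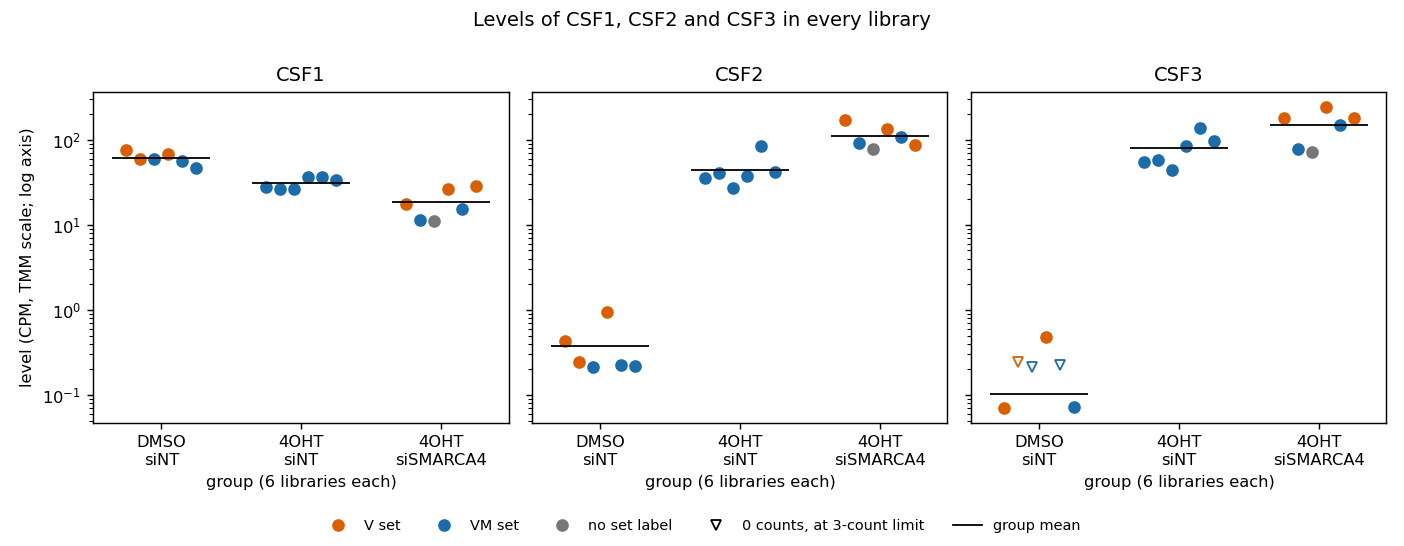
Level of each gene (CPM on the TMM scale, log axis) in each of the 6 libraries of the 3 groups. Points are coloured by set letters, open triangles mark libraries with 0 counts drawn at the limit of 3 counts, and lines are group means with such libraries taken as 0. CSF1 steps down from 60.9 to 31.2 to 18.5 CPM while CSF2 and CSF3 rise from under 1 CPM to means of 44.5 and 79.4 CPM in 4OHT_siNT.

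To describe what SMARCA4 knockdown did to the 3 genes in senescent cells, 4OHT_siSMARCA4 was compared with 4OHT_siNT. CSF2 rose further, to 2.50 times its mean in 4OHT_siNT, and CSF1 fell further, to 59.3% of its mean. CSF3 averaged 1.89 times its 4OHT_siNT mean but did not pass the test. Thus 1 of 3 members was called higher and 1 lower, beside 4.99% of all genes tested called higher and 5.65% called lower, and the median over all genes was 0.01 on the log2 scale.

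CSF2 in 4OHT_siSMARCA4 ran from 78.8 CPM through a median of 100.6 CPM to 169 CPM. Of the 6 knockdown libraries, 5 lay above the highest 4OHT_siNT library, at 85.2 CPM, which itself stood apart from the next highest of its group at 41.5 CPM. CSF2 thus changed by 1.32 ± 0.25 on the log2 scale (edgeR adjusted p = 0.00215). Within VM sets, with 2 knockdown libraries, it was 1.16 ± 0.28 (edgeR adjusted p = 0.00902), and with the unlabelled library added to them it was 1.05 ± 0.24 (edgeR adjusted p = 0.00424). It was called in every fit that left out 1 library, at 1.16 to 1.60. Libraries with siRNA number 4 alone gave 0.97 ± 0.38 and were not called (edgeR adjusted p = 0.409), in a fit that called 4 genes in all.

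CSF1 in 4OHT_siSMARCA4 ran from 11.0 CPM through a median of 16.5 CPM to 28.9 CPM. Of the 6 knockdown libraries, 4 were under the lowest value of 4OHT_siNT, 26.1 CPM, and the other two, the V libraries with siRNA 4, lay within the range of 4OHT_siNT. The change was −0.75 ± 0.21 on the log2 scale (edgeR adjusted p = 0.0253). Leaving out any 1 of 5 libraries ended the call, with edgeR adjusted p of 0.0515 without 4OHT_siNT 4-1VM, 0.0508 without 4OHT_siSMARCA4 2-3V, 0.0555 without 2-3VM, 0.0539 without the unlabelled library and 0.0556 without 4-2VM. Over all 18 fits that left out 1 library the change stayed between −0.92 and −0.65. Within VM sets it was −1.23 ± 0.18 (edgeR adjusted p = 0.000306), and with the unlabelled library added −1.32 ± 0.15 (edgeR adjusted p = 1.37e-05). With siRNA number 4 alone it was −0.61 ± 0.25 and not called (edgeR adjusted p = 0.428), in a fit that called 4 genes in all.

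Fibroblast marker genes also moved in this comparison. Of 5 markers, 4 were called lower, beside 5.65% of all genes tested. COL1A1 fell by 1.42 and COL1A2 by 1.46 on the log2 scale, both chains of type I collagen. PDGFRB, the receptor for platelet-derived growth factor, fell by 1.24, and THY1, a surface glycoprotein, by 1.12. VIM, the intermediate filament vimentin, had a log2 fold change of −0.03. The 5 markers summed to 14409 to 19151 CPM in 4OHT_siNT and to 8482 to 12351 CPM in 4OHT_siSMARCA4. Their part in the fall of CSF1 was not tested. Fewer cells that express a gene and less of its RNA per cell cannot be told apart in such bulk samples.

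CSF3 in 4OHT_siSMARCA4 ran from 71.98 CPM through a median of 163 CPM to 243 CPM. Of the 6 libraries, 4 lay above the highest 4OHT_siNT library, at 139 CPM, and the other two lay within its range. On the log2 scale this was 0.92 ± 0.32 with a 95% interval of 0.25 to 1.58 (edgeR adjusted p = 0.071). The side of the threshold depended on the fit. CSF3 was called when DMSO_siNT 4-2V was left out, at 0.91 (edgeR adjusted p = 0.0218), when 4OHT_siNT 4-2VM was left out, at 1.14 (0.0299), and when the unlabelled library was left out, at 1.05 (0.0477). It was also called with the 2 groups fitted alone, at 0.92 (edgeR adjusted p = 0.0341). The fit without DMSO_siNT 4-2V called 3269 genes in all on knockdown, against 1397 in the main fit. The fit of the 2 groups alone also called more genes than the main fit. Within VM sets the value of CSF3 was 0.48 ± 0.33 (edgeR adjusted p = 0.32), and with the unlabelled library added 0.30 ± 0.30 (edgeR adjusted p = 0.473).

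The comparison of 4OHT_siSMARCA4 with DMSO_siNT shares its libraries with both comparisons above, and its values are given beside them. The log2 fold changes were −1.72 ± 0.21 for CSF1, 8.28 ± 0.39 for CSF2 and 10.7 ± 0.59 for CSF3, with edgeR adjusted p from 2.25e-12 to 1.22e-06. No member overlapped between the groups, and how many of all genes tested did not overlap was not counted. Without the DMSO_siNT library 4-2V the value of CSF3 was 11.9 ± 0.68. So 2 of 3 members were called higher, beside 23.3% of all genes tested, and 1 lower, beside 27.3%. This was the comparison that could be repeated within both kinds of set. CSF1 changed by −1.47 ± 0.20 within V libraries and by −1.999 ± 0.24 within VM libraries. CSF2 changed by 7.999 ± 0.52 and 8.79 ± 0.57, and CSF3 by 10.33 ± 0.68 and 11.71 ± 0.81. The V change minus the VM change was 0.53 for CSF1, −0.79 for CSF2 and −1.37 for CSF3, and was not called for any member (edgeR adjusted p = 0.565, 0.753 and 0.78). For CSF3 its direction turned without the DMSO_siNT library 4-2V, at 0.36 ± 7.52.

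**Figure D2:**
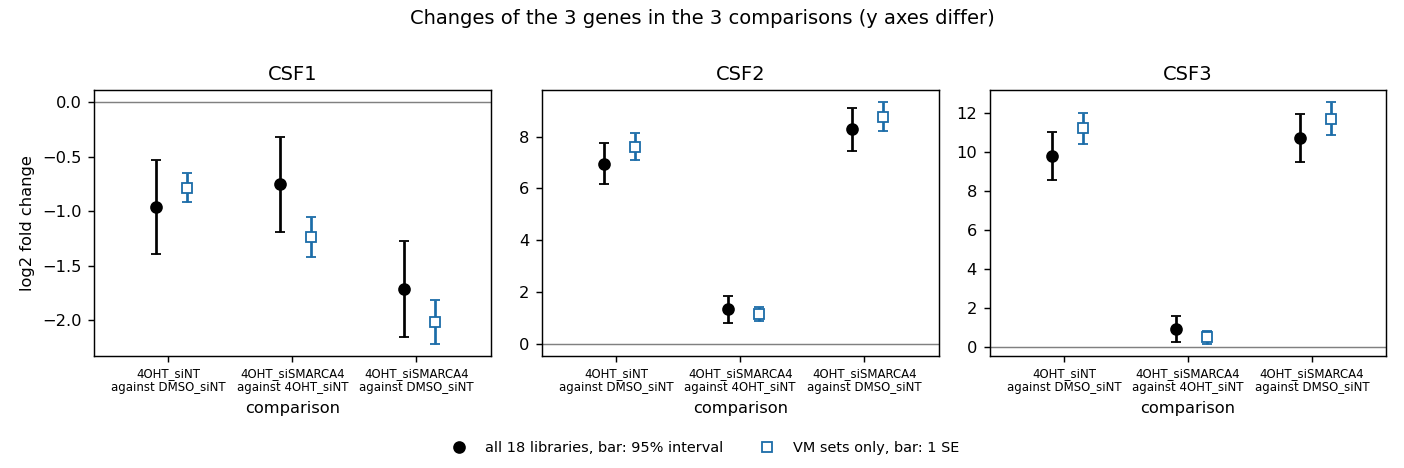
Log2 fold change of each gene (y axis, scales differ) in the 3 comparisons. Black points are fits of all 18 libraries with 95% intervals and open squares are VM sets only with 1 SE. CSF1 lies below 0 throughout, CSF2 above 0 throughout, and the VM value of CSF3 in the knockdown comparison (0.48 ± 0.33) is its smallest.

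The 6 knockdown libraries were not alike in the members. CSF1 was at 24.3 ± 5.92 CPM (SD, n = 3) in V libraries, at 11.6 and 15.3 CPM in the VM libraries and at 11.0 CPM in the unlabelled library, and the V libraries were all higher than the others. V libraries exceeded VM libraries by 0.85 ± 0.23 on the log2 scale, which was not called over 13887 genes (edgeR adjusted p = 0.194). With the unlabelled library counted as VM the difference was 0.94 ± 0.20 and was called (edgeR adjusted p = 0.0348). CSF3 was at 201 ± 36.8 CPM in V libraries, at 78.2 and 148 CPM in VM libraries and at 71.98 CPM in the unlabelled library, and CSF2 at 129 ± 41.2 CPM, 92.5 and 109 CPM, and 78.8 CPM. Neither passed the test (CSF3, difference 0.82, interval −0.10 to 1.74; CSF2, difference 0.36, interval −0.44 to 1.15).

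SMARCA4 itself was higher in each V library than in the other knockdown libraries, narrowly so in 4-3V. No test of this difference is given. V libraries held 41.3%, 46.7% and 30.8% of the 4OHT_siNT mean of SMARCA4, VM libraries 28.9% and 23.3%, and the unlabelled library 26.1%. In the same order CSF1 stood at 56.6%, 85.1% and 92.5% of its 4OHT_siNT mean, then at 37.04% and 49.1%, and at 35.2%. The part of the remaining SMARCA4 in these differences was not tested. Of the 6 libraries, 2 held less CSF3 than the 4OHT_siNT mean, the 3VM library at 98.4% and the unlabelled library at 90.6%, both with siRNA 2.

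**Figure D3:**
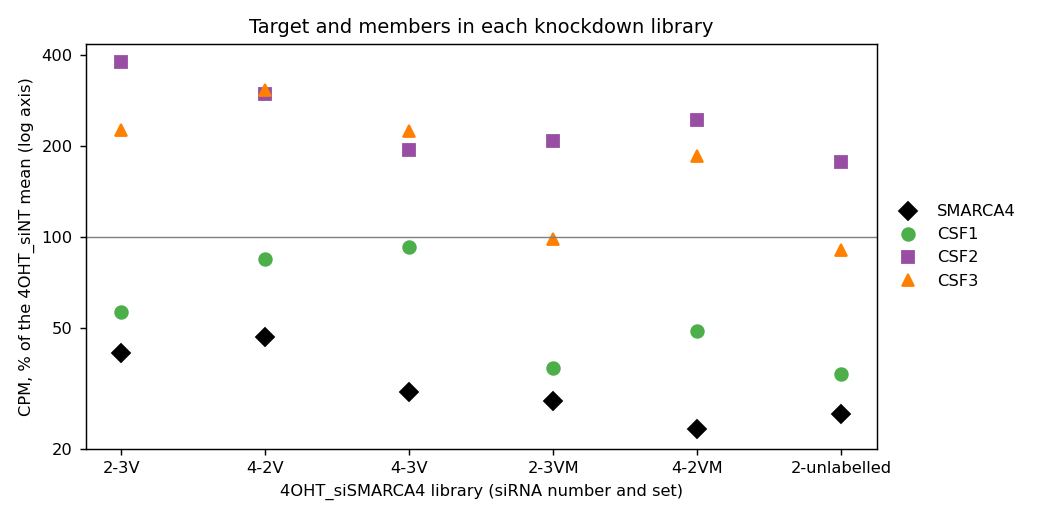
SMARCA4 and the 3 members in each 4OHT_siSMARCA4 library as a percentage of the 4OHT_siNT mean (log axis, line at 100%). CSF2 is above the line in all 6 libraries, CSF1 below it in all 6, and CSF3 above it in 4.

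The siRNAs of a group were compared in the same way. In 4OHT_siNT, CSF1 was at 26.8 ± 1.05 CPM (SD, n = 3) with siNT 2 and at 35.5 ± 1.29 CPM with siNT 4, with no overlap, a difference of −0.41 ± 0.21 on the log2 scale that was not called (edgeR adjusted p = 0.536). In the same group, CSF3 was at 52.3 ± 7.04 CPM (SD, n = 3) with siNT 2 and at 107 ± 29.1 CPM with siNT 4, a difference of −1.03 ± 0.34, also not called (edgeR adjusted p = 0.259). In 4OHT_siSMARCA4, CSF1 was at 13.4 ± 3.69 CPM with siRNA 2 and at 23.6 ± 7.25 CPM with siRNA 4, a difference of −0.80 ± 0.22 (edgeR adjusted p = 0.384). The siRNA 4 libraries comprised 2 V libraries and 1 VM library, and the siRNA 2 libraries 1 V, 1 VM and the unlabelled library. A non-targeting and a SMARCA4 siRNA of the same number share only that number in the labels. The difference of the knockdown change between siRNA numbers, 2 minus 4, thus also holds the difference between the non-targeting siRNAs. It was −0.39 (interval −1.04 to 0.26) for CSF1, 0.74 (−0.24 to 1.72) for CSF2 and 0.26 (−0.74 to 1.25) for CSF3, none of them called. For CSF2, siRNA 2 against 4 gave −0.68 ± 0.33 in 4OHT_siNT and 0.06 ± 0.33 in 4OHT_siSMARCA4, neither called. Knockdown fits of 1 siRNA number alone match libraries by the same number.

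Levels of different genes were compared per kilobase of annotated exon, with 5238 bases for CSF1, 788 for CSF2 and 2220 for CSF3. In DMSO_siNT, CSF1 stood at 11.6 CPM per kilobase, above CSF2 at 0.484 and CSF3 at 0.0467, or at 0.338 and 0.013 without the library 4-2V. In 4OHT_siNT the order was CSF2 at 56.5, CSF3 at 35.8 and CSF1 at 5.95 CPM per kilobase. In 4OHT_siSMARCA4 it was the same, at 141, 67.5 and 3.53 CPM per kilobase. Among the 3 genes, CSF1 made up 95.9% ± 2.85 (SD, n = 6) of the counts per kilobase in DMSO_siNT, 6.56% ± 1.55 in 4OHT_siNT and 1.69% ± 0.59 in 4OHT_siSMARCA4. CSF1 differed from both others beyond the spread in every group, whereas the separation of CSF2 and CSF3 in senescent cells rested on the length used. In 4OHT_siNT the share of CSF2 ran from 51.3% to 62.2% and that of CSF3 from 31.7% to 42.4%, without overlap, but with canonical transcripts (1504 bases for CSF3, 3994 for CSF1) they ran from 42.0% to 53.2% and from 40.04% to 51.2%. Over libraries, the levels of CSF2 (56.5 ± 26.04 CPM per kilobase, SD, n = 6) and CSF3 (35.8 ± 15.9, or 52.8 ± 23.4 by the canonical transcript) in 4OHT_siNT did not differ beyond their spread.

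**Figure D4:**
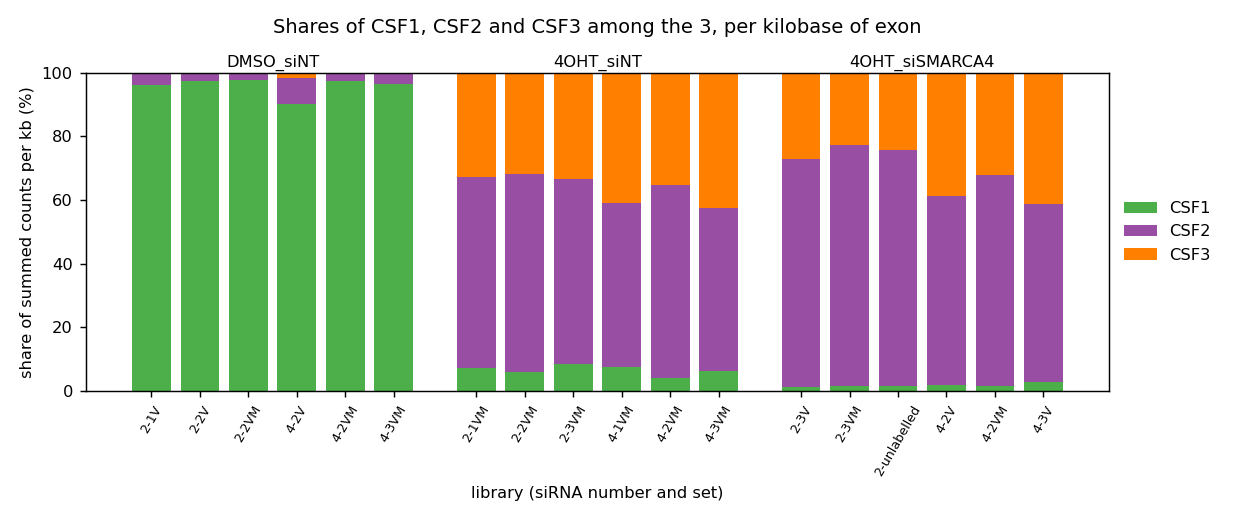
Share (%) of each gene in the summed counts per kilobase of the 3 members, 1 bar a library, labelled by siRNA number and set. CSF1 holds at least 90.2% in each DMSO_siNT library, at most 8.42% in each 4OHT_siNT library and at most 2.81% in each 4OHT_siSMARCA4 library.

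Ratios between 2 genes within a library do not depend on how libraries are scaled, and were tested as log2 of counts plus 0.5 in an exact two-sided permutation test over libraries (smallest p 0.00216, adjusted over 18 tests). CSF2 over CSF1 averaged 0.43 ± 0.44 (SD, n = 6) in 4OHT_siNT and 2.64 ± 0.60 in 4OHT_siSMARCA4, with no overlap, a difference of 2.21 ± 0.30 (SE; exact permutation adjusted p = 0.0026). CSF3 over CSF1 averaged 1.25 ± 0.42 and 2.98 ± 0.32, again with no overlap, a difference of 1.73 ± 0.22 (exact permutation adjusted p = 0.0026). The ratios to CSF1 separated the groups in every library, although the levels of each member overlapped. These ratios combine the opposite shifts of the same genes in the same libraries, so they are not further evidence beside the levels. How many other pairs of genes separated the groups was not counted. Within VM sets these differences were 2.48 and 1.76 (exact permutation adjusted p = 0.0714 for each, the smallest unadjusted p there being 0.0357).

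CSF3 over CSF2 averaged 0.82 ± 0.29 in 4OHT_siNT and 0.35 ± 0.53 in 4OHT_siSMARCA4, a difference of −0.47 ± 0.25 that did not pass (exact permutation adjusted p = 0.0894). Without the 4-3V knockdown library it was −0.61 and passed (exact permutation adjusted p = 0.0367). IL6, an interleukin of the SASP that the study used as a readout, was set beside the members. CSF2 over IL6 averaged −0.38 ± 0.23 in 4OHT_siNT and −0.47 ± 0.24 in 4OHT_siSMARCA4, a difference of −0.09 ± 0.14 (exact permutation adjusted p = 0.513), while IL6 itself rose by 1.48 ± 0.29 (edgeR adjusted p = 0.00232). CSF3 over IL6 fell by 0.57 ± 0.21 (exact permutation adjusted p = 0.0317), and leaving out any 1 of 6 libraries (4OHT_siNT 4-1VM, 4-2VM or 4-3VM, or 4OHT_siSMARCA4 2-3V, 2-3VM or the unlabelled one) brought the exact permutation adjusted p to 0.0633, with differences of −0.54 to −0.47. CSF1 over IL6 fell by 2.30 ± 0.22 (exact permutation adjusted p = 0.0026).

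Against DMSO_siNT, all 6 ratios differed in 4OHT_siNT with no overlap (exact permutation adjusted p = 0.0026 for each). CSF2 over CSF1 was higher by 7.81 and CSF3 over CSF1 by 10.7 on the log2 scale, or by 8.07 and 11.2 without the DMSO_siNT library 4-2V. CSF3 over CSF2 was higher by 2.93 ± 0.37, and CSF2 over IL6 by 3.55 ± 0.13. The DMSO_siNT values of CSF2 and CSF3 rest on 26 and 6 counts in all, so these sizes depend on the 0.5 added: with 2 added, CSF3 over CSF2 was higher by 1.96.

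Receptors and the other ligands of the same receptors were at the limit of detection, and none of these 9 genes passed the filter on low counts. CSF1R, the receptor of CSF1, had at most 14 counts in any library. CSF2RA had 6 counts and CSF2RB, the shared beta chain, 1 count over all 18 libraries, and CSF3R had 0 counts in each of them. IL3RA, the receptor of interleukin-3, had at most 7 counts and IL5RA 1 count in all. IL34, the second ligand of CSF1R, had 3 to 13 counts in DMSO_siNT libraries, 0 to 3 in 4OHT_siNT and 0 to 4 in 4OHT_siSMARCA4, while IL3 had 1 count in all and IL5 none.

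Of 12 genes that carry the signal of these receptors, 11 were tested. In 4OHT_siNT against DMSO_siNT, 4 rose and 1 fell, beside 23.9% and 28.9% of all genes tested. Those that rose were the adaptors SHC1 (0.75 ± 0.16) and GRB2 (0.44 ± 0.07), the kinase TYK2 (0.65 ± 0.23) and the transcription factor STAT3 (0.32 ± 0.08), and the one that fell was STAT5A (−0.71 ± 0.25), a transcription factor downstream of CSF2. Without the DMSO_siNT library 4-2V, STAT5A lost its call (−0.49 ± 0.22, edgeR adjusted p = 0.0633). The median over the list was 0.33 in senescence and −0.06 on knockdown, beside −0.05 and 0.01 over all genes tested.

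Of 9 feedback genes of cytokine receptors, 7 were tested, 3 rose and 3 fell in senescence, beside 23.9% and 28.9% of all genes tested. SH2B3, an adaptor that restrains JAK2, rose by 1.97 ± 0.18, CBL, a ubiquitin ligase that removes CSF1R, by 0.69 ± 0.17, and SOCS3 by 0.84 ± 0.26. PTPN11, the phosphatase SHP2, joined them when the DMSO_siNT library 4-2V was left out (0.28 ± 0.12, edgeR adjusted p = 0.0494). SOCS1 fell by 2.00 ± 0.24, CISH by 1.01 ± 0.24 and SOCS2 by 0.96 ± 0.22, all inhibitors of JAK and STAT signalling. The median was 0.41 in senescence and −0.12 on knockdown. There edgeR called none of the 7, beside 4.99% and 5.65% of all genes tested called higher and lower. Of the 7, 0 had an unadjusted edgeR p under 0.05, and DESeq2 called 0.

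The messages of CSF2 and CSF3 carry AU-rich elements, which bind proteins that shorten or extend the life of an mRNA, and other decay factors cut cytokine messages at stem-loops. Of 7 factors of both kinds, 2 rose and 4 fell in senescence, beside 23.9% and 28.9% of all genes tested. ZC3H12A, the endonuclease Regnase-1 that cuts at stem-loops, rose by 3.81 ± 0.28 (edgeR adjusted p = 1.27e-09), from a mean of 6.40 to 91.2 CPM. ZFP36L2 fell by 1.97 ± 0.15 and ZFP36 (tristetraprolin), which speeds the decay of CSF2 mRNA, by 1.14 ± 0.18. The median was −0.34 in senescence and −0.01 on knockdown. There edgeR called none of the 7, beside 4.99% and 5.65% of all genes tested called higher and lower. ZFP36 was the 1 gene with an unadjusted p under 0.05, at −0.49 ± 0.18 (edgeR adjusted p = 0.0953), and DESeq2 called 0 of the 7. Without the DMSO_siNT library 4-2V, ZFP36 was called (−0.50 ± 0.17, edgeR adjusted p = 0.036). That fit called 3269 genes in all on knockdown, against 1397 with every library kept. ADAM17, the protease that sheds CSF1 from the cell surface, was not called in either comparison (−0.05 ± 0.15 and 0.22 ± 0.15).

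Of 11 transcription factors known from CSF promoters, 7 rose and 2 fell in senescence, beside 23.9% and 28.9% of all genes tested. ETS2 rose by 1.27 ± 0.14, CEBPB by 1.15 ± 0.12, JUN by 1.00 ± 0.17 and NFKB1 by 0.97 ± 0.11, while FOS fell by 0.67 ± 0.22 and FOSL1 by 0.63 ± 0.18. The median was 0.58 in senescence and −0.02 on knockdown. On knockdown ETS2 was the 1 gene of the 11 called, higher by 0.63 ± 0.14 (edgeR adjusted p = 0.00529). Beside it, 4.99% and 5.65% of all genes tested were called higher and lower. DESeq2 called NFATC1 (0.51 ± 0.17, edgeR adjusted p = 0.0621) as well. Without the DMSO_siNT library 4-2V, edgeR also called NFATC1 (0.50 ± 0.17, adjusted p = 0.0327) and CEBPB (0.32 ± 0.10, adjusted p = 0.0262). That fit called 3269 genes in all on knockdown, against 1397 with every library kept.

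Of 7 inducers of CSF2 and CSF3 and their receptors, 6 were tested, with a median of 0.28 in senescence and 0.06 on knockdown, and IL1A and IL1B rose in senescence while IL17RC, a chain of the interleukin-17 receptor, fell by 0.52 ± 0.14, beside 23.9% and 28.9% of all genes tested called higher and lower. IL1A had at most 3 counts in any DMSO_siNT library and 682 to 1341 counts in 4OHT_siNT libraries. IL1B went from 2.38 ± 3.81 to 1011 ± 238 CPM (SD, n = 6). Of its 142 counts in DMSO_siNT, 84 came from library 4-2V, and the other 5 libraries averaged 0.851 ± 0.738 CPM. TNF had at most 2 counts in any library. On knockdown IL1R1, the signalling receptor of interleukin-1, was the 1 gene called, higher by 0.95 ± 0.21 (edgeR adjusted p = 0.00733), from 53.7 ± 4.93 to 103.6 ± 29.1 CPM. Beside it, 4.99% and 5.65% of all genes tested were called higher and lower. IL1B had a log2 fold change of 0.18 ± 0.50 (interval −0.87 to 1.23) and IL1A of 0.51 ± 0.19 (edgeR adjusted p = 0.1), neither called. Without the DMSO_siNT library 4-2V, IL1A was called at 0.51 ± 0.17 (edgeR adjusted p = 0.034). That fit called 3269 genes in all on knockdown, against 1397 with every library kept.

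Genes with the most similar pattern were found by the root mean square (RMS) difference of log2 CPM over the 18 libraries, after each gene was centred on its own mean, among 12502 candidates. For CSF1 they were SARDH, a mitochondrial sarcosine dehydrogenase, TMEM8B and DENND11, at 0.23, 0.26 and 0.27, beside a median of 0.90 over all candidates. For CSF2 they were PTGS2 (0.40), the inducible cyclooxygenase, the chemokine CCL20 (0.61) and BMP2 (0.65), beside a median of 3.45. For CSF3 they were CXCL8 (0.48), IL1A (0.50) and CXCL5 (0.63), beside a median of 4.25. The likeness of CSF2 and CSF3 to other genes rests in large part on the step between DMSO_siNT and the 4OHT groups, which all these genes share.

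These genes were chosen over all 18 libraries, so their knockdown values are a description and not a further result. The log2 fold changes on knockdown were 1.61 ± 0.15 for PTGS2, 1.10 ± 0.31 for CCL20 and 0.35 ± 0.12 for BMP2, beside 1.32 ± 0.25 for CSF2. They were 1.10 ± 0.37 for CXCL8, 0.51 ± 0.19 for IL1A and 1.08 ± 0.31 for CXCL5, beside 0.92 ± 0.32 for CSF3. For the genes nearest to CSF1 they were −0.64 ± 0.26 (SARDH), −0.75 ± 0.18 (TMEM8B) and −0.67 ± 0.21 (DENND11), beside −0.75 ± 0.21 for CSF1. With a prior count of 0.5 in place of 2, the 3 genes of CSF1 were the same, and CSF2 and CSF3 each shared 1 gene, PTGS2 and IL1A, with the first list.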

How the data were processed

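RNA from IMR90 ER:RAS cells was enriched for polyadenylated RNA and made into strand-specific libraries. The submitters' processing notes name STAR 2.7.8a, hg38 and DESeq2 1.36.0. The annotation, the counting program and its use of strand are not given in the sources used here. The authors deposited raw counts per gene, not normalized, in 36 columns, and the 2 lanes of each library were summed to 18 libraries. Of 29 samples in the labels 17 matched a library, and 12 were not analysed here. Lanes of 1 library and libraries of 1 group were compared by chi-square, and no pair was taken as 1 library.

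Genes were filtered with filterByExpr (minimum count 10) and scaled with TMM, and groups were compared in 1 fit (edgeR 4.0.16, quasi-likelihood, R 4.3.3). The Benjamini-Hochberg adjustment covered all 13136 genes tested, with a threshold of 0.05. SEs were derived from the F statistic. CPM are on the TMM scale, intervals are 95%, Poisson intervals and floors of 3 counts cover counting error only, and log2 CPM used a prior count of 2. The 3 members were chosen by name. The genes named are the members, SMARCA4, genes of the lists a sentence needs, and for each member the 3 genes of most similar pattern. Members and lists were chosen with earlier results of these data known. Alternatives covered scaling, filters, DESeq2 1.42.0, a replicate block, sets, siRNAs, the groups fitted and each library left out. VM sets with the unlabelled library, that library counted as VM, the V to VM differences without the DMSO_siNT library 4-2V, and the levels and list genes without that library were chosen after seeing the data. Scripts were tested on simulated data. Results for some genes of the lists are not reported here.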

Additional observations from a re-analysis of the deposited data

Results flagged for a closer look

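Of 30 groups of 6 values checked (levels of the members, the ratios and total counts), 4 held a library whose gap to its nearest neighbour took more than 0.625 of the whole range, and chance alone gives about 1 in 20, or 1.5 of 30. CSF2 in 4OHT_siNT was highest in the 4-2VM library, at 85.2 CPM beside 41.5 CPM in the next library, with a gap of 0.635 of the range on the log2 scale. In DMSO_siNT the 4-2V library had the highest ratio of CSF2 over CSF1 (gap 0.693) and the lowest ratio of CSF1 over IL6 (gap 0.691). The total count of the 4-2V library of 4OHT_siSMARCA4, 18039313, was the highest of its group (gap 0.786).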

How the results depend on the processing

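Of 132 values of the members under alternatives that kept all libraries of the fit or chose a subset, 123 kept their direction and side of the threshold. The uncalled V minus VM difference of CSF3 against DMSO_siNT reversed to 0.36 without the DMSO_siNT library 4-2V, and the uncalled knockdown difference of CSF2 over IL6 reversed to 0.036 within VM sets. CSF3 on knockdown became called with library totals alone (0.96, edgeR adjusted p = 0.048), with only the groups compared (0.92) and with siRNA 2 alone (1.07). With siRNA 4 alone the calls of CSF1 in senescence (−0.64) and of CSF1 and CSF2 on knockdown (−0.61 and 0.97) were lost, and the V minus VM difference of CSF1 on knockdown was called with the unlabelled library as VM (0.94). With 1 library left out, knockdown values ran from −0.92 to −0.65 for CSF1, from 1.16 to 1.60 for CSF2 and from 0.71 to 1.14 for CSF3. CSF2 and CSF3 gave no value under the filter of 10 counts in every library, which they did not pass.

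With the set name as a replicate block, CSF2 on knockdown was 1.03 and lost its call (edgeR adjusted p = 0.158), CSF1 was −1.04 and CSF3 0.33, and calls over all genes were 4356 in senescence and 236 on knockdown, against 6935 and 1397. The block changed no other call of a member. With it the uncalled siRNA 2 minus siRNA 4 differences were −0.20 (CSF1), 1.46 (CSF2) and 0.89 (CSF3). The set names were not taken to pair the libraries: deviations of libraries of the same set correlated at −0.23 (2V), −0.07 (2VM) and 0.15 (3VM) between 4OHT_siSMARCA4 and DMSO_siNT, at 0.16 (3VM) and −0.05 (2VM) between 4OHT_siSMARCA4 and 4OHT_siNT, and at 0.27 (3VM) and −0.04 (2VM) between 4OHT_siNT and DMSO_siNT, so that 3VM alone was above 0.1.

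Calls on knockdown over all genes were 2858 within VM sets, 4064 with the unlabelled library added, 3405 with the 2 groups alone, 3429 with siRNA 2 and 4 with siRNA 4. With 1 library left out they ran from 923 (unlabelled) to 3269 (DMSO_siNT 4-2V), with 931 without 2-3VM. Against DMSO_siNT, knockdown calls were 2732 within V sets and 4119 with siRNA 4.

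Among ratios, the VM sets were too few to pass in 10 of 18 tests, with smallest p of 0.0357 on knockdown and 0.1 against DMSO_siNT. The knockdown differences were 2.48 (CSF2 over CSF1), 1.76 (CSF3 over CSF1), −2.45 (CSF1 over IL6) and −0.69 (CSF3 over IL6). Against DMSO_siNT they were 10.6, 13.0, −7.01 and 5.99, with 2.38 for CSF3 over CSF2 and 3.62 for CSF2 over IL6. With 1 library left out, CSF3 over IL6 ran from −0.66 to −0.47 and CSF3 over CSF2 from −0.61 to −0.36 on knockdown. The cause of these changes was not tested.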

Other observations

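Protein-coding neighbours of the 3 genes were read as well. MED24, a Mediator subunit that lies 1283 bases after CSF3, had a log2 fold change of 0.33 ± 0.18 in senescence and of −0.21 ± 0.18 on knockdown, neither called by edgeR, and PSMD3, a proteasome subunit before CSF3, rose by 0.58 ± 0.20 in senescence. THRA, a thyroid hormone receptor and the second gene after CSF3, fell by 0.95 ± 0.24 in senescence (edgeR adjusted p = 0.00257). On knockdown THRA had −0.57 ± 0.24 (edgeR adjusted p = 0.147). Without the DMSO_siNT library 4-2V it was called there (−0.58, edgeR adjusted p = 0.000843). That fit called 3269 genes in all on knockdown, against 1397 with every library kept. IL3, 10584 bases before CSF2, had 1 count in all 18 libraries, and GSDMA, on the far side of PSMD3, had 0. Beyond CSF2, P4HA2, a collagen prolyl hydroxylase, rose by 0.92 ± 0.13 and PDLIM4 by 1.80 ± 0.16 in senescence, with −0.06 ± 0.13 and −0.17 ± 0.15 on knockdown. GSTM5, 134813 bases before CSF1 and one of a family of close paralogs between which reads can be split, fell from 19 to 43 counts per library in DMSO_siNT to 0 to 7 in 4OHT_siNT (edgeR adjusted p = 7.86e-06), and had 0 to 2 counts in 4OHT_siSMARCA4 (edgeR adjusted p = 0.0408 against 4OHT_siNT). After CSF1, AHCYL1 rose by 0.37 ± 0.13 in senescence (edgeR adjusted p = 0.0194) with −0.14 ± 0.13 on knockdown. EPS8L3 and ACSL6 had 2 and 3 counts in all.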
